A study of Homo sapiens with 12 samples.

Results

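The neurotrophin genes BDNF and NTF3, the receptor genes NTRK2, NTRK3, NGFR, SORT1 and NRADD, and the p75NTR-binding protein MAGED1 were followed in SK-N-Be(2)C cells, a human neuroblastoma line. All array probes whose annotation named 1 of these 8 genes were taken, whatever their values. This gave 18 probes for 6 of the 8 genes, out of 47323 probes on the Illumina Human HT-12 v4 BeadChip: 7 for BDNF, 3 for NTRK2, 2 for NTRK3, 1 each for NGFR and NRADD, and 4 for MAGED1. NTF3 and SORT1 were not analysed here. RefSeq now lists the NRADD probe's gene as NRADDP, a transcribed pseudogene.

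The 12 arrays formed 4 groups of 3. WT cells were the untreated parental line, and WT-v cells were parental cells given the histone deacetylase inhibitor vorinostat (SAHA) alone. DoxR cells had been made resistant by stepwise increases of doxorubicin, an anthracycline that poisons topoisomerase II, and DoxR-v cells had gone through the same selection with intermittent vorinostat at each logarithmic increase. Each group is thus 1 population of 1 cell line, and the resistant populations were selected separately. Whether the 3 arrays of a group stand for separate cultures is not stated, so a p-value here reflects the spread among 3 specimens and that spread may be technical.

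Neurotrophins are secreted as proneurotrophins and cleaved to mature ligands. BDNF acts through the receptor tyrosine kinase TrkB (NTRK2) and NT-3 mainly through TrkC (NTRK3), whose kinases feed the RAS-ERK, PI3K-AKT and phospholipase C pathways, while proneurotrophins bind p75NTR (NGFR) together with sortilin-family receptors. In neuroblastoma, BDNF with TrkB is known from other work for survival signalling and drug resistance, and TrkC for tumours of favourable course.

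BDNF is transcribed from several start sites that splice to a shared coding exon. RefSeq (GRCh38.p14) gave 5 start windows for BDNF, all on the minus strand of chromosome 11. The 250 bases before each start were searched on both strands for the cyclic AMP response element (CRE, TGACGTCA), its half-site (TGACG, which also lies within the full element), the E-box CACGTG and the GC box GGGCGG. The 2 windows below are shown because they hold the half-site and the E-box, the letters that CREB and USF proteins, regulators of BDNF in neurons, are known to bind. Capitals mark the match.
BDNF start 2 (chr11:27720780-27721029, minus strand): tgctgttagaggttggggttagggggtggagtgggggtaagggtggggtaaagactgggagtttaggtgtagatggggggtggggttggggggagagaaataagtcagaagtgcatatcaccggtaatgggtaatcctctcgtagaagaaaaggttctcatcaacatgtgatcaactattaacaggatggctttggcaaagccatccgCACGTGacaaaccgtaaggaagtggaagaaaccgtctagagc
BDNF start 4 (chr11:27701622-27701871, minus strand): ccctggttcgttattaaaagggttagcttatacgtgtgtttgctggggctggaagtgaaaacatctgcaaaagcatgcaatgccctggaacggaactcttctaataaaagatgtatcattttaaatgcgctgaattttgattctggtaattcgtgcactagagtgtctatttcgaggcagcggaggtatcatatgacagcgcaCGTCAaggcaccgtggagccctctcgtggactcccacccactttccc

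The E-box began 42 bases before start 2, and the half-site, read on the opposite strand as CGTCA, began 47 bases before start 4. Windows 1 and 3 held 1 and 2 GC boxes, window 5 held none of the motifs, and no window held the full CRE. Of all 35116 promoter windows of this length, 1.65% held the full CRE, 21.2% the half-site, 6.34% the E-box and 42.6% the GC box. A match describes the letters only. The position of each array probe on the gene was not used here, so the array signals cannot be assigned to a start.

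Median probe signal was 98.7 to 125.2 per array, 31.3 to 36.5% of probes were detected, and replicates of a group correlated at 0.981 to 0.993. The number of arrays limits the precision. A probe was called detected on an array at a detection p-value under 0.01, and probes detected on at least 1 array were tested, which left 21730 probes and 8 of the 18 member probes. Calls needed a limma p-value, adjusted over all tested probes, under 0.1 together with a fold change over 1.5. Of 12 sympathetic neuroblast markers, 11 had a probe and all 11 were detected on every array, whereas the Schwann cell markers SOX10, S100B, CDH19, FOXD3 and GFAP were detected in no group. ERBB3, the neuregulin receptor of Schwann cells, had log2 means of 5.28 in WT, 6.25 in DoxR, 6.03 in DoxR-v and 4.87 in WT-v cells. It was called higher than WT in DoxR (0.98, adjusted p = 9.4e-04) and in DoxR-v cells (0.75, adjusted p = 0.00753). Detection was on all DoxR and DoxR-v arrays, 1 WT array and no WT-v array.

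BDNF was the member that differed most between groups, and it did so on 1 of its 7 probes. BDNF signal on probe ILMN_1751276 was 90.9, 113 and 113 in the 3 WT arrays and 181, 189 and 144 in WT-v, in the arbitrary units of the scanner. It was 704, 919 and 716 in DoxR and 548, 615 and 451 in DoxR-v. The groups did not overlap, and they rose in the order WT, WT-v, DoxR-v and DoxR. The probe was detected on none of the 3 WT arrays and on all 9 of the others. After background correction and quantile normalization the log2 signal was 9.39 ± 0.08 in DoxR, 8.74 ± 0.09 in DoxR-v, 6.00 ± 0.50 in WT-v and 4.69 ± 0.11 in WT (mean ± SD, n = 3). The spread was widest in WT-v, where replicate 3, at 5.42, lay below replicates 1 and 2, at 6.26 and 6.32.

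**Figure D1:**
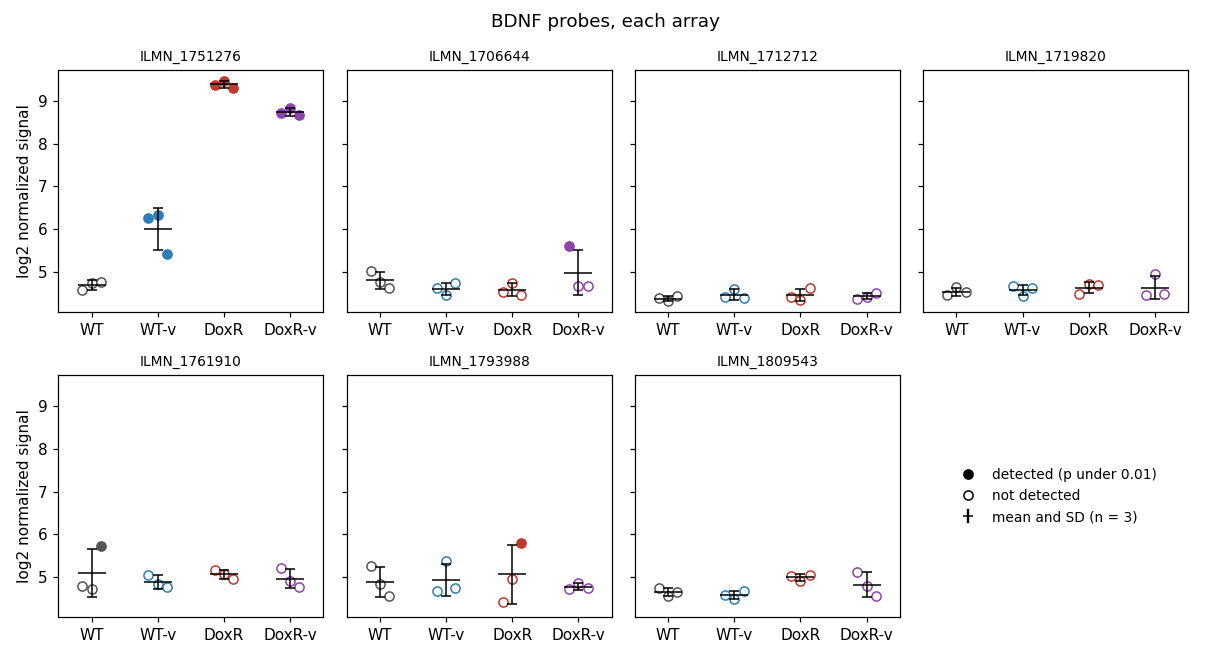
Log2 normalized signal of the 7 BDNF probes in each array of the 4 groups. Filled points were detected at p under 0.01, open points were not, and bars are mean and SD of 3 arrays. Only ILMN_1751276 left the undetected range in whole groups, reaching a mean of 9.39 in DoxR cells.

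Because WT signal was not above background, the BDNF differences against WT are bounds, taken from the lowest detected signal of each WT array after background correction and normalization. They hold on that scale only. On it, BDNF was on ILMN_1751276 at least 13.6-fold higher in DoxR than in WT cells (fitted log2 difference 4.71, SE 0.20, adjusted p = 2.1e-09). In DoxR-v cells it was at least 8.66-fold higher than in WT (fitted 4.06, adjusted p = 1.8e-08), and in WT-v cells at least 1.29-fold higher (fitted 1.31, adjusted p = 3.9e-04). These comparisons share the WT arrays. The first and the second stayed called in each of 22 alternative treatments of the data, but their size depended on the background correction. Without it the whole difference was 2.82 in DoxR (7.06-fold) and 2.26 in DoxR-v cells (4.79-fold). In the deposited normalized values it was 2.37 (5.17-fold) and 1.85 (3.61-fold), so that both bounds lie above the fold of these treatments. The call in WT-v cells was lost without background correction (0.51) and in the deposited normalized values (0.37), where the fold limit was not reached.

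Among cells with measurable signal, BDNF on ILMN_1751276 was higher in DoxR-v than in WT-v cells by 2.74 on the log2 scale (SE 0.20, 6.7-fold, adjusted p = 6.6e-07). It fell by 0.65 from DoxR to DoxR-v cells (SE 0.20, 1.57-fold, adjusted p = 0.0242), a step that was under the fold limit without background correction (-0.56) and in the deposited values (-0.52). The vorinostat groups thus lay above their counterpart in the parental background and below it in the resistant background. The difference between these 2 steps was -1.96 (SE 0.28, adjusted p = 1.8e-04), although in it the separate selection of the resistant populations cannot be told apart from vorinostat. Its value ran from -2.24 to -0.89 over 21 alternatives and was called in each.

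Of the other 6 BDNF probes, the 3 that could be tested were called in none of the 6 comparisons. ILMN_1761910, annotated to the same RefSeq transcript (NM_001709), gave signals of 98.4 to 144 and was detected only on WT replicate 3. ILMN_1706644 was detected only on DoxR-v replicate 1, and ILMN_1793988 only on DoxR replicate 3. For these 3 probes the differences against WT lay between -0.23 and 0.18 on the log2 scale, with adjusted p of 0.464 to 0.953. ILMN_1706644 was not called in the difference of the vorinostat step (0.60, adjusted p = 0.164), and passed the limits only without DoxR-v replicate 2 or 3 (0.75 and 0.76), which gives replicate 1 more weight. On ILMN_1761910 the 95% interval of the DoxR difference was -0.52 to 0.47, where ILMN_1751276 gave 4.28 to 5.14. ILMN_1712712, ILMN_1719820 and ILMN_1809543 were detected on no array, with log2 signals of 4.31 to 5.12, and were not tested. On ILMN_1809543 the log2 mean was 4.99 in DoxR and 4.82 in DoxR-v, against 4.64 in WT and 4.57 in WT-v, all below detection. The BDNF result therefore rests on 1 probe, and the tested probes of the gene disagree. BDNF-AS, the antisense RNA of the locus, was not detected on any array.

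Genes of mesenchymal cells moved between the same groups. The summed signal of 8 mesenchymal markers, before normalization, ranged over 3200 to 4000 in WT arrays and 10200 to 11600 in WT-v arrays. In DoxR arrays the sum was 14200 to 16500, and 10800 to 15100 was the range in DoxR-v. Of these markers, VIM, DCN, LUM and PDGFRB were detected on all WT arrays, and COL1A2 and FN1 on none of the 12 arrays. VIM, the intermediate filament vimentin, was higher by 4.36 on the log2 scale in DoxR cells, while DCN, LUM and PDGFRB were lower, with differences of -3.31, -2.07 and -3.67. The DoxR log2 mean was 13.74 for VIM and at most 7.66 for the other tested markers, so the summed signal in DoxR follows VIM. In DoxR-v cells VIM, DCN and LUM were higher than in WT, by 2.32, 1.36 and 2.80, and PDGFRB differed by -2.39. The WT-v differences of VIM, DCN and LUM were 2.70, 0.98 and 0.96, and PDGFRB was not called there (0.31). COL3A1, a fibrillar collagen, was detected in WT-v and DoxR cells only. The summed signal of the 11 neuroblast markers, also before normalization, was 89400 to 116000 in WT and 69200 to 88100 in DoxR arrays. It was 99000 to 105000 in WT-v and 76900 to 99900 in DoxR-v arrays. In DoxR against WT 6 of the 11 were not called (45.5% called, all genes 33.8%). PHOX2A and ELAVL4 were higher (0.79 and 1.12), and CHGA, HAND2 and DBH lower (-0.79, -1.25 and -4.11). The part of these genes in the BDNF result was not tested, and in bulk RNA a change in the share of a cell type and a change in RNA per cell cannot be told apart.

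Over the 12 arrays, the genes whose log2 signal followed that of BDNF ILMN_1751276 most closely were HSDL2 (Pearson r = 0.98), TEX15 (0.98) and ANTXR1 (0.97), among 12135 genes searched. These points share the group structure and are given as a description. TEX15, a gene of meiotic cells, averaged 8.61 in DoxR, 7.73 in DoxR-v, 6.24 in WT-v and 4.92 in WT cells on the log2 scale, the same order as BDNF.

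Other ligands gave little signal. Of the 2 probes for NTF4, a ligand of TrkB, 1 was detected on no array and ILMN_3237085 only on WT replicate 3, with signals of 104 to 141. It was not called against WT in DoxR cells (log2 difference -0.22, adjusted p = 0.409).

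The receptors were at the level of the negative controls on nearly every array. For NTRK2, which encodes TrkB, ILMN_2357855 gave signals of 91.3, 106 and 117 in WT and 114, 123 and 159 in WT-v. It gave 102, 106 and 90.6 in DoxR and 94.1, 109 and 94.5 in DoxR-v. Only WT-v replicate 3, at 159, passed detection. ILMN_2357855 was called in none of the 6 comparisons, with differences of -0.12 in DoxR, -0.10 in DoxR-v and 0.40 in WT-v cells against WT (95% intervals -0.63 to 0.39, -0.61 to 0.41 and -0.11 to 0.91). In DoxR-v against WT-v it differed by -0.50 (adjusted p = 0.138), and passed the limits only when WT-v replicate 1 or 2 was left out (-0.68 and -0.65), which gives replicate 3 more weight. The other NTRK2 probes, ILMN_1702822 and ILMN_1714067, were detected on no array. The lowest detection p of ILMN_1702822 was 0.0195, on WT-v replicate 3, and its 3 WT-v signals of 130 to 137 were the 3 highest of the 12.

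NTRK3, which encodes TrkC, was not detected on any array by either probe, with log2 signals of 4.33 to 4.78 on ILMN_1687967 and 4.52 to 5.29 on ILMN_1734893. NGFR, which encodes p75NTR, gave signals of 93.4 to 138 on ILMN_1752658 and was detected on no array. Its highest signals, 126 and 138, were on WT-v replicates 1 and 2. NRADD, which encodes a death-domain protein related to p75NTR in rodents, gave 90.7 to 115 on ILMN_3243603 and was also detected on no array. For NTRK3, NGFR and NRADD no fold can be given in any comparison. Failure to pass detection does not show that a transcript is absent.

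**Figure D2:**
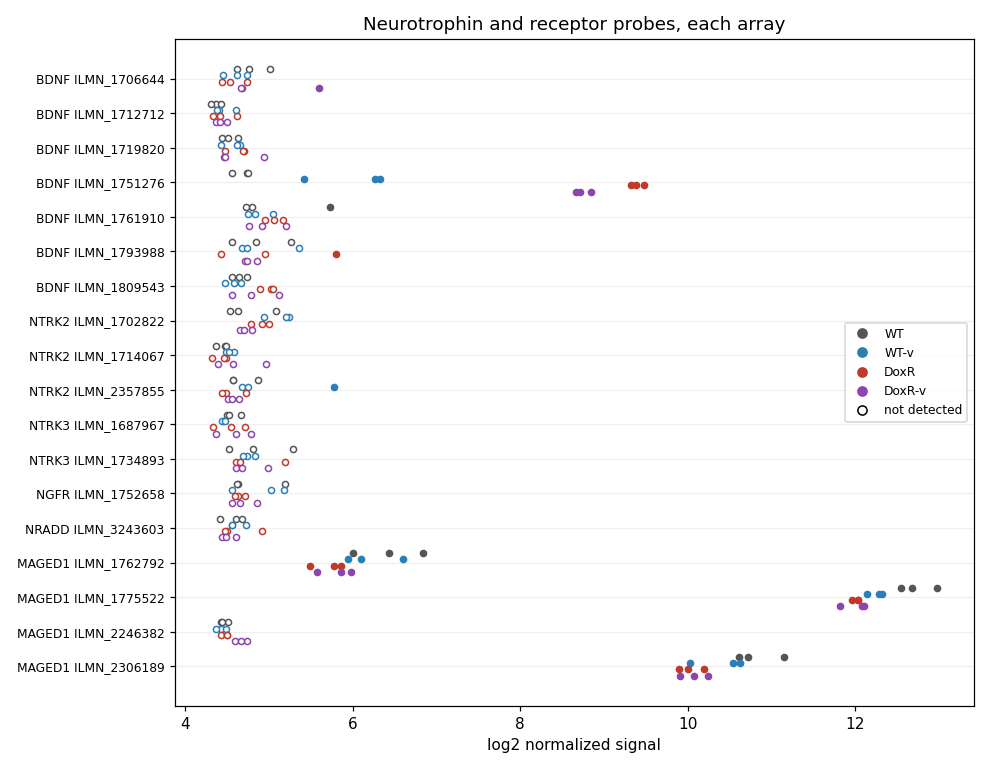
Log2 normalized signal of all 18 probes in each of the 12 arrays, coloured by group. Filled points were detected. Apart from ILMN_1751276 for BDNF and 3 MAGED1 probes, the probes lie between 4.31 and 5.80 and are almost all open.

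MAGED1 (NRAGE), which binds the intracellular part of p75NTR and is known to promote cell death, was detected on every array by 3 of its 4 probes and was lower in both resistant populations. On ILMN_1775522 the MAGED1 signal was 5630, 6120 and 8260 in WT and 4840, 5780 and 5200 in WT-v. It was 3840, 4800 and 4030 in DoxR and 4470, 4670 and 3600 in DoxR-v. All WT arrays but replicate 1 lay above every other array, and after normalization WT, at 12.55 to 12.98, lay above all 9 other arrays, at 11.82 to 12.32. The difference from WT was -0.73 in DoxR (SE 0.14, 1.66-fold lower, adjusted p = 0.00143), -0.74 in DoxR-v (adjusted p = 0.00210) and -0.49 in WT-v cells (adjusted p = 0.0207), the last under the fold limit.

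**Figure D3:**
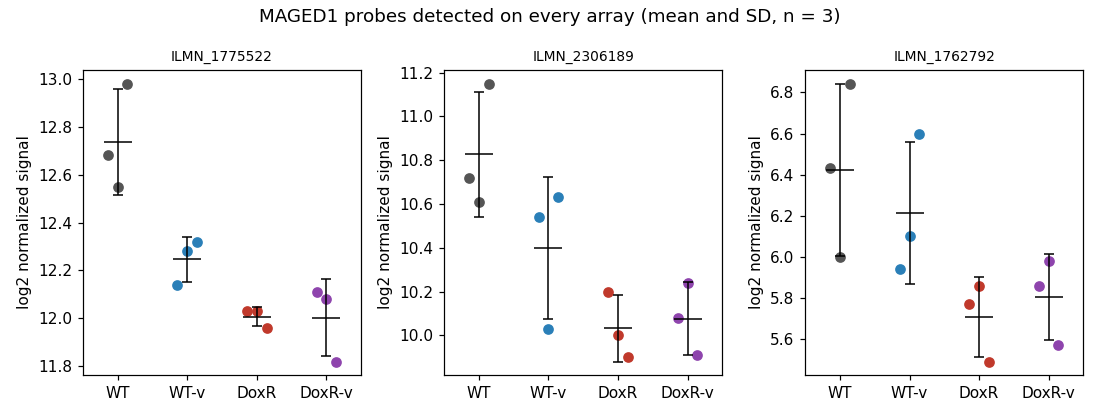
Log2 normalized signal of the 3 detected MAGED1 probes in each array, with mean and SD of 3 arrays per group on a separate axis for each probe. DoxR and DoxR-v means lie below WT on each probe, and WT replicate 3 is the highest array on each.

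The second MAGED1 probe, ILMN_2306189, gave 10.03 ± 0.15 in DoxR and 10.07 ± 0.16 in DoxR-v cells, against 10.82 ± 0.29 in WT and 10.40 ± 0.33 in WT-v. WT did not overlap DoxR or DoxR-v but overlapped WT-v. The differences from WT were -0.79 in DoxR (adjusted p = 0.00518) and -0.75 in DoxR-v cells (adjusted p = 0.00980). The third, ILMN_1762792, gave 6.42 ± 0.42 in WT and 5.71 ± 0.19 in DoxR, and fell by 0.72 (adjusted p = 0.0223). In DoxR-v, at 5.80 ± 0.21, it fell by 0.62 (adjusted p = 0.0537). Without WT replicate 3 the ILMN_1762792 differences were -0.51 (DoxR) and -0.42 (DoxR-v) and were not called, and the DoxR-v call was also lost without WT replicate 1 (-0.63) or DoxR-v replicate 3 (-0.50). Both ILMN_1762792 calls were lost without background correction, with an offset of 50 and in the deposited values as well, the last with differences of -0.24 and -0.22, and in all 6 and 9 of 22 alternatives ended them. Under median scaling in place of quantile normalization, which moved the median of all probes up by 0.15 in DoxR and 0.19 in DoxR-v cells, ILMN_2306189 differed by -0.58 and -0.51 and was not called either. ILMN_2246382 was detected on no array.

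No MAGED1 probe was called between DoxR-v and DoxR cells, where the differences were -0.01, 0.04 and 0.10 with intervals no wider than -0.39 to 0.58, nor between DoxR-v and WT-v cells. The vorinostat step did not pass the limits for a difference between backgrounds on ILMN_1775522 (0.48, adjusted p = 0.0849, under the fold limit). The genes most like ILMN_1775522 over the 12 arrays were C5orf15 (r = 0.96), SLC20A2 (0.96) and PJA1 (0.95).

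In total 4 of the 8 tested probes were called in DoxR against WT, 1 BDNF probe higher and 3 MAGED1 probes lower, where 30.6% of all probes tested were called, 15.8% higher and 14.8% lower. The same 4 probes were called in DoxR-v against WT (all probes 23.5%, 12.0% higher and 11.5% lower). BDNF ILMN_1751276 alone was called in the remaining comparisons. These were WT-v against WT (all probes 25.5%), DoxR-v against DoxR (26.0%), DoxR-v against WT-v (23.5%) and the difference of the vorinostat step (38.7%). The called probes stand for 2 genes, since probes of a gene are not independent.

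**Figure D4:**
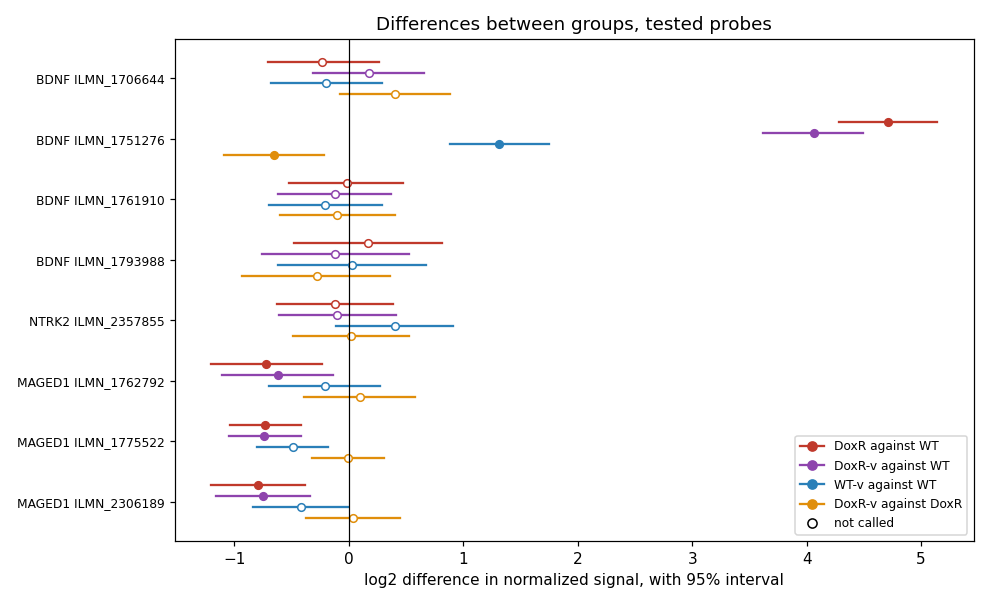
Log2 difference with 95% interval for the 8 tested probes in 4 comparisons. Filled points passed both limits. BDNF ILMN_1751276 stands at 4.71, 4.06, 1.31 and -0.65, and the other BDNF and NTRK2 intervals all reach across 0.

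Genes that act with these ligands and receptors were counted from 6 lists, with each gene on its brightest tested probe. Of all 12138 genes tested, 33.8% were called in DoxR against WT (17.4% higher, 16.3% lower), 25.8% in DoxR-v (13.3% higher, 12.6% lower) and 27.1% in WT-v (14.5% higher, 12.6% lower), with median log2 differences of 0.01, 0.02 and 0.03. Between DoxR-v and DoxR cells 29.1% were called (14.7% higher, 14.5% lower), and between DoxR-v and WT-v 25.4% (12.6% higher, 12.8% lower). A few list genes are named beside small counts or for their size, FOS included, and these were chosen after their values were seen. The folds given as at least a value hold on the corrected scale, and 8 of 12 such folds against WT lay above the whole fold both without background correction and in the deposited values.

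Of the sortilin-family receptors other than SORT1, which bind neurotrophins, proneurotrophins or Trk receptors, SORL1, SORCS1 and SORCS2 were called higher in DoxR cells. With NTF4 they made up 4 tested genes of a list of 7, of which 3 were higher in DoxR, and 0 were called in DoxR-v or WT-v cells. At an unadjusted limma p under 0.05 the counts were 0 and 1. From DoxR to DoxR-v cells the same 3 fell. SORCS2 passed the detection filter only through DoxR, the group where it was highest. Its place among the tested genes and its calls thus rest on the same values, which favours both counts of 3. SORL1 and SORCS1 were detected on all 12 arrays. SORCS2, a partner of p75NTR for proBDNF, had log2 signals of 6.10, 5.82 and 6.03 in DoxR and was detected on those 3 arrays only. It was at least 1.28-fold higher than in WT (adjusted p = 1.0e-06) and at least 1.36-fold higher than in DoxR-v (adjusted p = 7.4e-07). SORL1, a sorting receptor, averaged 6.40 ± 0.45 in WT and 7.76 ± 0.24 in DoxR, a rise of 1.36 (adjusted p = 3.1e-04). It fell by 1.01 from DoxR to DoxR-v cells (adjusted p = 0.00303). SORCS1 rose by 0.59 in DoxR (adjusted p = 0.00766), a call lost without WT replicate 2 (0.50) or 3 (0.56) or DoxR replicate 1 (0.58) or 2 (0.55), and fell by 0.72 from DoxR to DoxR-v (adjusted p = 0.00253). The other SORL1 probe (0.68) and both other SORCS1 probes (1.36 and 0.66) were called higher in DoxR as well. The SORCS1 probes disagreed in WT-v, with differences of -0.34, 1.68 and 0.14, and in DoxR-v, with -0.13, 0.74 and -0.05. From DoxR to DoxR-v the other 2 SORCS1 probes differed by -0.62 and -0.72, and 1 of them was called. The list counts rest on the brightest probe. SORCS2 was not called in the deposited normalized values (0.47).

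Proneurotrophin processing and release genes split evenly. Of 10 tested, 2 were higher and 2 lower in each of the 3 comparisons with WT (40.0%). Without WT replicate 2 the count in DoxR was 2 in place of 4. SCG2, secretogranin II of the dense-core granules that carry BDNF, differed from WT by -1.06 in DoxR, -1.03 in DoxR-v and -1.08 in WT-v cells (adjusted p = 4.9e-04, 0.0010 and 7.5e-04). Its WT log2 signals of 13.36, 13.13 and 13.80 lay above all 9 others, which spanned 12.13 to 12.67. PLAT, the plasminogen activator whose product plasmin cleaves proBDNF, fell by 0.95 in DoxR-v (adjusted p = 5.6e-04) and differed by -1.03 in WT-v (adjusted p = 3.3e-04), against a difference of 0.18 in DoxR (adjusted p = 0.399). MMP2, a matrix metalloproteinase, rose by 0.71 in DoxR, 0.69 in DoxR-v and 1.53 in WT-v cells (adjusted p = 0.0178, 0.0272 and 2.0e-04). CADPS, which primes dense-core vesicles for release, rose by 0.67 in DoxR (adjusted p = 0.0145) and 0.77 in DoxR-v cells (adjusted p = 0.00880). Both MMP2 calls in resistant cells were lost without WT replicate 1 (0.46 and 0.44), and that of CADPS in DoxR without WT replicate 2 (0.52). CADPS2 made up the count of genes lower in DoxR, and PCSK6 that of genes higher in WT-v cells. These 2 genes were near background, with CADPS2 detected on 1 and PCSK6 on 2 of the 12 arrays.

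Of 32 tested Trk adaptors and kinases, 5 were higher and 6 lower in DoxR (34.4%), 5 higher and 5 lower in DoxR-v (31.2%), and 9 higher and 3 lower in WT-v cells (37.5%), close to the share of all genes in the first. List medians were -0.07, 0.05 and 0.27. Without WT replicate 1 the count in DoxR-v was 6 in place of 10. RPS6KA2, the ERK-activated kinase RSK3, had log2 signals of 6.54 to 6.95 in DoxR-v, 7.53 to 7.70 in DoxR, 8.14 to 8.44 in WT-v and 8.84 to 9.30 in WT, with no overlap. It fell by 1.43 in DoxR (adjusted p = 2.0e-05) and differed by -2.33 in DoxR-v (adjusted p = 4.6e-07), while its other probe was not called (-0.63 and -0.45). SH2B2, an adaptor of Trk receptors, rose by 1.34 in DoxR and 1.23 in DoxR-v cells (adjusted p = 0.00130 and 0.00361). PIK3CB, a catalytic subunit of PI3-kinase, rose by 1.18 in DoxR-v (adjusted p = 0.0129) and 1.32 in WT-v cells (adjusted p = 0.00662), and differed by 0.64 in DoxR (adjusted p = 0.127), where it was called without WT replicate 3 (1.06, adjusted p = 0.00536). SH2B2 and PIK3CB were each detected on 1 of 3 WT arrays. CAMK2D, a calcium-dependent kinase, fell by 1.19 in DoxR (adjusted p = 0.00104) and differed by -0.60 in DoxR-v cells (adjusted p = 0.0623). The second CAMK2D value passed the fold limit narrowly and was lost in 11 of 22 alternatives, among them without WT replicate 1 (-0.42) or 3 (-0.58) or DoxR-v replicate 1 (-0.48) or 2 (-0.59). GRB2, GAB1, MAPK7 and AKT2 were the other genes higher in DoxR cells.

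The p75NTR partners were called at 54.2% in DoxR and 45.8% in WT-v cells, where the shares of all genes were lower. Of 24 tested, 6 were higher and 7 lower in DoxR, 2 higher and 10 lower in DoxR-v (12 of 24 called), and 3 higher and 8 lower in WT-v, with medians of -0.16, -0.34 and -0.07. Without WT-v replicate 1 the count in WT-v was 7 of the partners in place of 11. NDN, the MAGE-family protein necdin that binds p75NTR, had log2 signals of 8.41, 8.90 and 8.11 in WT and 9.01, 9.57 and 8.93 in WT-v. It was 6.12, 6.80 and 7.26 in DoxR-v and was not detected on any DoxR array. NDN was thus at least 8.17-fold lower in DoxR than in WT (adjusted p = 2.0e-07), and fell by 1.75 in DoxR-v (adjusted p = 4.8e-04). In WT-v it was 0.69 higher (adjusted p = 0.0748), a call lost in 9 of 22 alternatives, among them without WT replicate 1 (0.66) or 3 (0.51) or WT-v replicate 1 (0.77) or 2 (0.49). MAGEH1, another MAGE protein that binds p75NTR, was lower in DoxR, DoxR-v and WT-v cells by differences of -2.18, -1.19 and -1.48 (adjusted p = 2.4e-06, 6.7e-04 and 1.6e-04). Its other probe was not called (-0.53, -0.51 and -0.51).

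TNFRSF19 (TROY), which can replace p75NTR in the Nogo receptor complex, was lowest in the vorinostat groups. Its log2 mean was 8.16 ± 0.26 in WT and 7.47 ± 0.03 in DoxR, against 5.55 ± 0.40 in WT-v and 5.71 ± 0.13 in DoxR-v cells. Among WT-v arrays it was detected on 1 of 3 only. It fell by 2.60 in WT-v (adjusted p = 9.2e-07), and the difference was -2.44 in DoxR-v (adjusted p = 1.4e-06) and -0.68 in DoxR (adjusted p = 0.0133), the last lost without WT replicate 1 (-0.58). RTN4R, the Nogo receptor of that complex, was detected on all WT and WT-v arrays and on no DoxR or DoxR-v array. It was at least 2.21-fold lower in DoxR (adjusted p = 9.1e-05) and at least 2.08-fold lower in DoxR-v than in WT (adjusted p = 8.9e-04), and differed by -0.46 in WT-v (adjusted p = 0.243), called without WT-v replicate 2 (-0.85). The stress kinase genes MAPK8, MAPK9 and MAPK10, which signal downstream of p75NTR, rose by 1.47, 1.32 and 1.04 in DoxR cells. MAPK8 and ARHGDIA were the 2 genes higher in DoxR-v, and APH1A, ADAM10 and NDN those higher in WT-v cells.

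Of 17 tested regulators of BDNF transcription, 4 were higher and 1 (RCOR2) lower in DoxR (29.4%), 2 higher and 2 lower (SRF and NFATC4) in DoxR-v (23.5%), and 5 higher and 1 (BHLHE40) lower in WT-v cells (35.3%). These shares lay from below to above those of all genes, with medians of 0.10, 0.00 and 0.18. NFATC4 was detected on 1 WT array and on no DoxR-v array, so its fall lies near background. ARNT2, the partner of the activity-dependent factor NPAS4, was detected on no WT array and had log2 signals of 7.49, 7.28 and 7.59 in WT-v. It was at least 3.55-fold higher in WT-v (adjusted p = 1.3e-06), at least 1.56-fold higher in DoxR (adjusted p = 6.6e-05) and at least 1.09-fold higher in DoxR-v cells (adjusted p = 0.00194). CRTC1, a CREB coactivator, rose in WT-v cells by 1.18 and in DoxR by 1.13 (adjusted p = 0.0168 and 0.0166), and differed by 0.68 in DoxR-v (adjusted p = 0.150), called without WT replicate 3 (1.01) or WT-v replicate 2 (0.67). In WT it was detected on 1 of 3 arrays. EP300, the acetyltransferase p300, rose by 1.73 in WT-v and 0.94 in DoxR-v cells (adjusted p = 1.0e-04 and 0.00607), and differed by 0.58 in DoxR (adjusted p = 0.0542, under the fold limit), called without WT replicate 3 (0.84) or DoxR replicate 2 (0.67). MEF2D, an activity-dependent factor, rose by 0.87 in DoxR cells (adjusted p = 3.2e-04) and fell by 0.73 from DoxR to DoxR-v (adjusted p = 0.00129). CRTC2 was the other gene higher in DoxR, and SIN3A and NFATC3 the others in WT-v. Between DoxR-v and WT-v cells, BHLHE40 was higher and 7 of the 17 were lower (47.1%, all genes 25.4%).

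Genes that respond to Trk-ERK signalling were called more often than genes at large, at 60.0% of 20 tested in DoxR, 65.0% in DoxR-v and 55.0% in WT-v cells. In DoxR 8 were higher and 4 lower, in DoxR-v 9 and 4, and in WT-v 7 and 4, with medians of 0.47, 0.46 and 0.29. ETV1, counted as higher in DoxR-v (0.98), was detected on 1 array, in DoxR-v, and NPTX2, counted as lower, on WT arrays only. Both passed the detection filter only through the group where they were highest. DUSP6, the phosphatase of ERK that ERK induces, had log2 signals of 9.69, 9.54 and 9.67 in DoxR and 9.49, 9.47 and 9.54 in DoxR-v, against 5.97 to 6.51 in WT and 6.26 to 6.61 in WT-v. It rose by 3.37 in DoxR (10.4-fold, adjusted p = 3.8e-09) and by 3.24 in DoxR-v (9.45-fold, adjusted p = 1.4e-08), and differed by 0.21 in WT-v (adjusted p = 0.341). Its other probe was also called in both resistant populations (1.71 and 1.55).

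SPRY1, an inhibitor of receptor tyrosine kinase signalling that is itself induced by it, was not shared by the resistant populations. It averaged 9.65 ± 0.05 in DoxR, 7.91 ± 0.07 in WT-v, 5.91 ± 0.60 in WT and 5.29 ± 0.24 in DoxR-v cells. It rose by 3.74 in DoxR (adjusted p = 7.0e-08) and by 2.01 in WT-v (adjusted p = 5.2e-05), and fell by 4.36 from DoxR to DoxR-v (adjusted p = 1.6e-08). The vorinostat step of SPRY1 differed between backgrounds by -6.37 (SE 0.33, adjusted p = 1.9e-08). SPRY1 was detected on 2 of 3 WT and 1 of 3 DoxR-v arrays, so the size of these steps rests in part on values at background. The fall of 0.61 in DoxR-v against WT (adjusted p = 0.0666) was lost in 12 of 22 alternatives, among them without WT replicate 1 (-0.38) or 3 (-0.53) or DoxR-v replicate 2 (-0.58) or 3 (-0.51). The other SPRY1 probe was also called in DoxR and in WT-v cells (1.88) and not in DoxR-v (-0.15).

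FOS, the immediate early transcription factor, was detected on no WT array, on 1 WT-v array and on all arrays of both resistant populations. It was at least 2.66-fold higher in DoxR than in WT (adjusted p = 2.5e-06) and at least 1.12-fold higher in DoxR-v (adjusted p = 0.00203), and fell by 1.25 from DoxR to DoxR-v cells (adjusted p = 6.0e-04). The DoxR-v call against WT was lost without background correction, with an offset of 50 and in the deposited values. ARC, another immediate early gene of neurons, rose by 1.36, 1.39 and 1.11 in DoxR, DoxR-v and WT-v cells (adjusted p = 0.00175, 0.00241 and 0.00891). In WT it was detected on 1 of 3 arrays. NPTX2, a secreted synaptic pentraxin, had log2 signals of 7.14, 6.85 and 7.20 in WT and was detected on no other array. It was at least 3.08-fold lower in DoxR, 2.89-fold in DoxR-v and 3.17-fold in WT-v cells (adjusted p = 4.3e-07, 1.6e-06 and 1.2e-06). The remaining genes lower against WT were GAP43, ETV4 and ETV5 in DoxR, and SPRY1, DUSP4 and ETV5 in DoxR-v. In WT-v they were DUSP4, DUSP5 and ETV5.

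**Figure D5:**
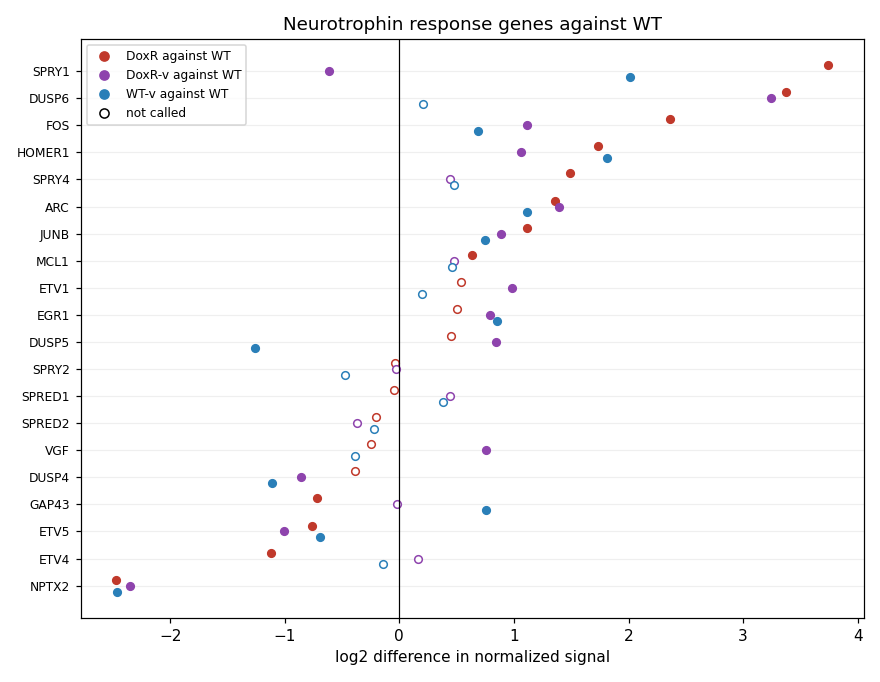
Log2 difference against WT of 20 neurotrophin response genes in DoxR, DoxR-v and WT-v cells, ordered by DoxR. Filled points were called. DUSP6 lies at 3.37 and 3.24 in the resistant populations and 0.21 in WT-v, SPRY1 at 3.74 in DoxR and -0.61 in DoxR-v, and NPTX2 near -2.4 in all 3 groups.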

How the data were processed

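Total RNA of 12 SK-N-Be(2)C specimens was hybridised to 1-colour Illumina HT-12 v4 arrays. The deposited probe signal intensities, summarised from beads by the authors and not normalized between arrays, were the main values. Per the file headers each comes with a detection p-value, computed before deposit from negative control probes. A second deposited set of intensities, normalized by the authors, served as an alternative. Versions 2.13.3 of lumi and 3.0.1 of R are given in the submitters' processing notes. Bead summarisation software and a genome build are not given in the sources used here.

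Background was corrected by normexp (offset 16, its parameters inferred through the detection p-values), followed by quantile normalization and log2. Of 47323 probes, 30113 had 1 symbol in the platform annotation, 8 several and 17202 none, and 30074 matched RefSeq by Entrez ID. Probes detected (p under 0.01) on at least 1 array were fitted with limma 3.58.1 in R 4.3.3, 1 mean per group over all 12 arrays, with Benjamini-Hochberg adjustment over 21730 probes in each of 6 comparisons. A call needed an adjusted p under 0.1 and a fold over 1.5. Where the lower group was detected on no array, the fold is a bound on this corrected scale: the mean of the brighter group against, per array, the higher of the lowest detected signal and the probe's own. The fit was tested on simulated data.

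All member probes, the 3 genes most correlated with each called member, and up to 4 called genes of largest difference per list are named. The lists cover other neurotrophin ligands and receptors, Trk adaptors and signalling, p75NTR partners, proneurotrophin processing and release, BDNF transcription regulators and neurotrophin response genes. Marker lists cover neuroblasts, Schwann cells, mesenchymal, blood, and endothelial or epithelial cells. Of the blood cell markers CD3E, HBB, LYZ and PTPRC, and of the endothelial and epithelial markers CDH5, KDR, KRT5, KRT14, KRT18, PECAM1 and VWF, were detected in no group. In these lists CD68 was detected on 12 arrays, CD14 on 11, HBA2 on 4 and EPCAM on 5. CD14 was called lower than WT in DoxR (-1.54), DoxR-v (-1.63) and WT-v cells (-1.36). Members and lists were chosen with earlier results of these data known. Alternatives covered background correction, scaling, the deposited normalized values, the detection filter, the groups in the fit, a replicate block, both thresholds and leaving out each array. No BeadChip or scan date was used. The companion SK-N-SH line was left out.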

Additional observations from a re-analysis of the deposited data

Results flagged for a closer look

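The step between vorinostat and its counterpart ran in opposite directions in the parental and the resistant background for BDNF on ILMN_1751276. WT-v lay above WT and DoxR-v below DoxR, and the test of the difference between these steps gave -1.96 on the log2 scale (SE 0.28, adjusted p = 1.8e-04, limma over 21730 probes). WT signal was not detected on any array, so the size of the parental step rests on values at background. The DoxR and DoxR-v populations were selected separately, and this cannot be told apart from vorinostat.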

How the results depend on the processing

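Of 1000 member values under 22 alternatives, 970 kept their side of the limits, 26 lost a call and 4 gained one. No called value changed sign, and 17 values that were not called did. Member probes called fell from 4 to 2 under median scaling and to 1 with a fold over 2, in DoxR and in DoxR-v cells against WT. In WT-v cells the count fell from 1 to 0 without background correction and in the deposited values, and in DoxR-v against DoxR to 0 under both and with a fold over 2. Without 1 array the counts ran from 3 to 4 in DoxR and DoxR-v against WT, stayed at 1 in WT-v against WT and in DoxR-v against DoxR, and ran from 1 to 2 in DoxR-v against WT-v and in the difference of the vorinostat step. Under median scaling 5225 of 7173 calls in DoxR against WT were higher, against 3436 of 6660 in the reported values. In DoxR-v they were 5116 of 6357 against 2609 of 5105, in WT-v 5418 of 6814 against 2963 of 5534, and in the difference 2744 of 8297 against 4020 of 8419. Over all probes the counts in DoxR, DoxR-v and WT-v against WT were 3397, 2362 and 2616 without background correction, 2771, 1856 and 2099 in the deposited values, and 2749, 1607 and 1802 with a fold over 2, and an offset of 50 gave 3338 in DoxR-v. In DoxR-v against DoxR (5646 as reported), DoxR-v against WT-v (5105) and the difference (8419) they were 3037, 2437 and 5257 without background correction, 2503, 1947 and 4330 in the deposited values, and 2203, 1742 and 4495 with a fold over 2. The calls of SH2B2 and CRTC1 against WT were lost without background correction and in the deposited values. Both settings also ended the calls of CAMK2D, MMP2 and CADPS in both resistant populations, and of TNFRSF19 and SORCS1 in DoxR. In DoxR-v they ended those of ARNT2, PIK3CB, EP300, FOS and SPRY1, and in WT-v those of ARC, FOS and NDN. The deposited values also ended those of SORCS2 and ARNT2 in DoxR, ARC in both resistant populations, RTN4R in DoxR-v and PIK3CB in WT-v. The cause of these changes was not tested.

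List counts against WT moved as follows. For Trk adaptors and signalling in DoxR, the main count of 11 became 3 without background correction, 6 with an offset of 50, 3 in the deposited values and 4 with a fold over 2. In DoxR-v it went from 10 to 5 without background correction, 4 in the deposited values and 4 with a fold over 2, and in WT-v from 12 to 4, 2 and 3, with 5 at the offset of 50. For p75NTR partners a fold over 2 left 8 of 13 in DoxR, 7 of 12 in DoxR-v and 3 of 11 in WT-v, where 6 were left without background correction and 5 in the deposited values. For processing and release, DoxR went from 4 to 1 without background correction, 2 with the offset of 50, 1 in the deposited values and 1 with a fold over 2, and DoxR-v from 4 to 2 without background correction, 2 in the deposited values and 1 with a fold over 2. BDNF transcription regulators in DoxR went from 5 to 3 without background correction, 2 in the deposited values and 2 with a fold over 2, in DoxR-v from 4 to 0, 0 and 1 in the same order, and in WT-v from 6 to 3 under the first and the second. Response genes in DoxR-v went from 13 to 6, 5 and 6, and in WT-v from 11 to 6 in the deposited values and with a fold over 2. Other ligands and receptors went from 3 to 1 in DoxR in the deposited values, and from 0 to 1 under median scaling in DoxR-v and in WT-v.

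Without 1 array, lists in DoxR ran from 2 to 3 for other receptors, 9 to 14 for Trk, 10 to 14 for p75NTR, 2 to 4 for processing, 5 to 6 for regulators and 11 to 13 for response genes. In DoxR-v they stayed at 0 for other receptors and ran from 6 to 10, 9 to 12, 3 to 6, 4 to 6 and 11 to 13, and in WT-v at 0 and from 8 to 14, 7 to 13, 4 to 6, 5 to 6 and 9 to 12. Same-numbered arrays did not deviate together (r from -0.27 to 0.12 over 18 pairs, 1 of 12 arrays best with its own number). With the replicate block the member counts were 4, 4, 1, 1, 1 and 1, each as without it. Signal near background limits all receptor probes.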
